A study of Mus musculus with 8 samples.

Results

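The genes described here encode the granule proteins of the eosinophil and the receptors by which that cell is recruited and kept alive: Epx, Prg2, Prg3, Ear1, Ear2, Il5ra and Ccr3. Their probe sets were taken by gene symbol from the platform annotation, also where a probe set carried several joined symbols. This gave 5 of the 13319 genes named on the array, with 1 probe set each: Epx (1449136_at), Prg2 (1422873_at), Prg3 (1449924_at), Il5ra (1421620_at) and Ccr3 (1422957_at), out of 22626 probe sets. The annotation used here paired no probe set with Ear1 or Ear2, and these 2 genes were not analysed here. The group was chosen in part by the signal of Epx and Prg2 in tumors against parental cells, so that difference is described below without a test.

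The samples were 2 kinds of mouse RNA. Parental cells were FL5.12, a pro-B cell line that depends on interleukin-3, stably carrying Bfl-1DC, a construct of the survival protein Bfl-1, together with p53DD, a fragment that blocks p53; they were grown with medium from WEHI-3B cells as the source of interleukin-3. Tumors 1, 2 and 3 came from the spleens of 3 nude mice that developed leukemia or lymphoma after intravenous injection of these transfected cells, so the injected cells behind every group carried both constructs. The labels list the same culture medium for the tumor samples. Each of the 4 sources was measured on 2 arrays, 8 in all. Nude mice lack a working thymus but keep their own granulocytes, and the labels mention no sorting of the tumor cells and give no age or sex of the mice. The labels also do not say whether duplicate arrays came from separate cultures or extractions, and p-values that rest on their spread may measure technical variation alone.

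Eosinophils are granulocytes that arise in bone marrow under interleukin-5, which acts through a receptor made of the alpha chain Il5ra and the shared beta chain Csf2rb. They fill their granules, early in their development, with cationic proteins: eosinophil peroxidase (Epx), major basic protein (Prg2), its homolog (Prg3) and ribonucleases of the Ear family. The chemokine receptor Ccr3 guides the mature cell towards eotaxins such as Ccl11 and Ccl24. A pro-B cell is a precursor of the B lineage and is not known for the granule proteins named here.

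The 3 granule protein genes had high or raised signal in the tumors, whereas both receptor genes stayed near the floor on every array. Epx had a signal of 9.21 and 9.34 on the parental arrays, 3260 and 4607 for tumor 1, 2934 and 2614 for tumor 2, and 2965 and 3950 for tumor 3. Every tumor array was far above both parental arrays, and the tumors lay close to one another. On the tumor arrays the Epx signal was 129 to 224 times the 40th percentile of the same array, the level used here as the floor, and on the parental arrays it was under that level. Taken per source, the Epx signal was 9.27 ± 0.09 (SD, n = 2 arrays) in parental cells, 3934 ± 953 in tumor 1, 2774 ± 226 in tumor 2 and 3457 ± 696 in tumor 3 (SD, n = 2 arrays each). In this bulk RNA, fewer cells of a type and less RNA per cell cannot be told apart.

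Prg2, the main protein of the crystalline granule core, had a signal of 12.2 and 10.4 on the parental arrays, 346 and 1460 for tumor 1, 738 and 1856 for tumor 2, and 3750 and 3977 for tumor 3. All tumor arrays were above the parental ones, both arrays of tumor 3 were above all other tumor arrays, and tumors 1 and 2 overlapped. Prg3 had a signal of 2.72 and 2.18 on the parental arrays, 5.37 and 52.3 for tumor 1, 19.7 and 49.9 for tumor 2, and 235 and 212 for tumor 3. Again tumor 3 stood apart above the rest, and the first array of tumor 1 did not exceed the floor. The log2 difference between tumors and parental cells, on the scale of log2(signal + 16), was 7.05 ± 0.19 (SE) for Epx, 5.78 ± 0.63 for Prg2 and 2.05 ± 0.73 for Prg3, with 3 tumors against 2 parental arrays. The signal added before taking logs holds down the difference of a dim probe set such as that of Prg3, which was 3.90 with 1 in place of 16. Of 14897 probe sets that passed the filter on low signal, 1393 (9.35%) had all 6 tumor arrays above both parental arrays, as these 3 did. Since that contrast led to their choice, nothing is read from it.

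**Figure D1:**
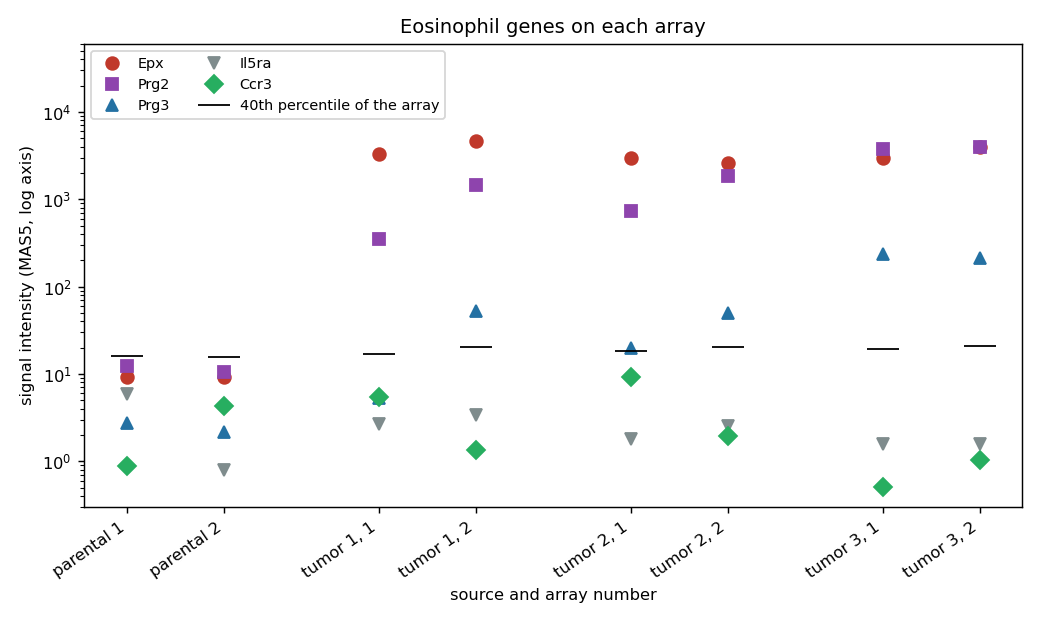
MAS5 signal intensity (log axis) of the 5 probe sets on each of the 8 arrays, 1 point per array, with a black bar at the 40th percentile of that array. Epx and Prg2 lie above the bar on all 6 tumor arrays, Prg3 on 5 of them, and Il5ra and Ccr3 on none of the 8 arrays; levels of different probe sets are not comparable.

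Il5ra, the interleukin-5 binding chain, had a signal of 5.84 and 0.786 on the parental arrays, 2.67 and 3.42 for tumor 1, 1.81 and 2.56 for tumor 2, and 1.57 and 1.58 for tumor 3. Ccr3, the eotaxin receptor, had 0.880 and 4.33 on the parental arrays, 5.50 and 1.35 for tumor 1, 9.25 and 1.96 for tumor 2, and 0.506 and 1.03 for tumor 3. Neither exceeded the 40th percentile on any array, and for both genes the range of the tumor arrays overlapped that of the parental arrays. Their log2 differences were -0.069 ± 0.15 (SE) for Il5ra and 0.039 ± 0.16 for Ccr3, in a fit without the filter. At this signal a low level of either RNA was not detectable, which differs from showing that it is absent. Detection calls were not used here.

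The stretches upstream of the start site are shown for Epx and Prg3, whose signal was raised in tumors, and for Il5ra and Ccr3, whose signal was not. The RefSeq promoter table (GRCm38.p6) held 6 of the 7 genes and did not include Prg2. Each line gives the 250 bases before the start on the gene's own strand, 5′ to 3′. Capitals mark the letters GATAA (a motif of GATA factors), TTGCNNAA (C/EBP factors), GAGGAA (ETS factors such as Spi1) and TATAAA, the TATA box, searched on both strands.

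Epx, chr11:87875537-87875786, minus strand: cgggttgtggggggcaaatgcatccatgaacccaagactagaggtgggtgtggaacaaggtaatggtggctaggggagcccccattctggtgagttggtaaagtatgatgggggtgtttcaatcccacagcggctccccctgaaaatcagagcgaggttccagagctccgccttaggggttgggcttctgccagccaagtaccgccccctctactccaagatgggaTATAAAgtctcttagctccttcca
Prg3, chr2:84987965-84988214, plus strand: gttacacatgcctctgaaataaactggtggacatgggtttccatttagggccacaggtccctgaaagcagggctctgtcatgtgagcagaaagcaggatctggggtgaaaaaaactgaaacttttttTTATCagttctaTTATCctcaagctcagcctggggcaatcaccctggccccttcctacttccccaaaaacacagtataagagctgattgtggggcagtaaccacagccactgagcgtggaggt
Il5ra, chr6:106749038-106749287, minus strand: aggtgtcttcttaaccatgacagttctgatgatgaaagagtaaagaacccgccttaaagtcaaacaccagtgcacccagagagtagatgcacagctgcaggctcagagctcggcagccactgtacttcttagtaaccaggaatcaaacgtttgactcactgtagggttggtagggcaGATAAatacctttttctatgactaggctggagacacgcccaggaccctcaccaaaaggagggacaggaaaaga
Ccr3, chr9:124021721-124021970, plus strand: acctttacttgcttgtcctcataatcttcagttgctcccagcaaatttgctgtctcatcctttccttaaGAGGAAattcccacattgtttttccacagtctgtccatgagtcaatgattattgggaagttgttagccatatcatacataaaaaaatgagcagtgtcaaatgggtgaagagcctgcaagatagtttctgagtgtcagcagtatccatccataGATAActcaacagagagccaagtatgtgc

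Epx held 1 TATAAA, which began 24 bases before the start. Prg3 held GATAA 2 times on the opposite strand, beginning 123 and 111 bases before the start and printed there as TTATC. Il5ra held 1 GATAA and Ccr3 held 1 GATAA and 1 GAGGAA. No motif overlapped another. Among all 32851 upstream stretches of this length in the table, 22.6% held GATAA, 9.56% TTGCNNAA, 23.3% GAGGAA and 12.4% TATAAA, so each match is a common one. Of the 4 stretches, those of Prg3, Il5ra and Ccr3 held GATAA and that of Epx did not.

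The tumors were then compared with one another, a comparison that played no part in choosing the genes. For Epx the largest difference was the one between tumors 2 and 1, -0.48 ± 0.23 (SE) on the log2 scale, and limma's F test over the 3 tumors gave an adjusted p of 0.685. For Prg2, tumor 3 was higher than tumor 1 by 2.41 ± 0.63 and higher than tumor 2 by 1.71, with an adjusted p of 0.246. For Prg3, tumor 3 was higher than tumor 1 by 2.65 ± 0.51 and than tumor 2 by 2.30, with an adjusted p of 0.0823. None of the 3 passed in that fit, in which 188 of 14897 probe sets (1.26%) did. Arrays of the same number deviated together in all sources, and with the array number as a block limma's adjusted p was 0.0236 for Prg3, 0.0609 for Prg2 and 0.310 for Epx. Prg3 thus passed with the block, as did 787 probe sets (5.28%). Within the blocked fit the step from tumor 1 to tumor 3 had an adjusted p of 0.0188 for Prg3 and 0.0378 for Prg2, and the step from tumor 2 to tumor 3 had 0.0525 and 0.175.

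In these tests the spread is that between duplicate arrays of 1 source, pooled over the parental cells and the tumors. For these genes the parental pair lay under the floor and differed by 0.0073 (Epx), -0.095 (Prg2) and -0.043 (Prg3). These differences were smaller than those in tumors 1 and 2, which lowers the pooled spread of the fit without the block. Both arrays of tumor 3 stood above all other tumor arrays for 7.5% of probe sets, and Prg2 and Prg3 are 2 neighbouring genes among them. Without the first array of tumor 1 the unblocked adjusted p of Prg3 was 0.0348, without the second it was 0.0123, and without either array of tumor 3 it was 0.411 or 0.384. With 64 added to the signal it was 0.0392 by limma's F test, and with 1 added it was 0.302. With no filter on low signal it was 0.181. Whether the order of the tumors for Epx differs from that for Prg2 and Prg3 was not tested.

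**Figure D2:**
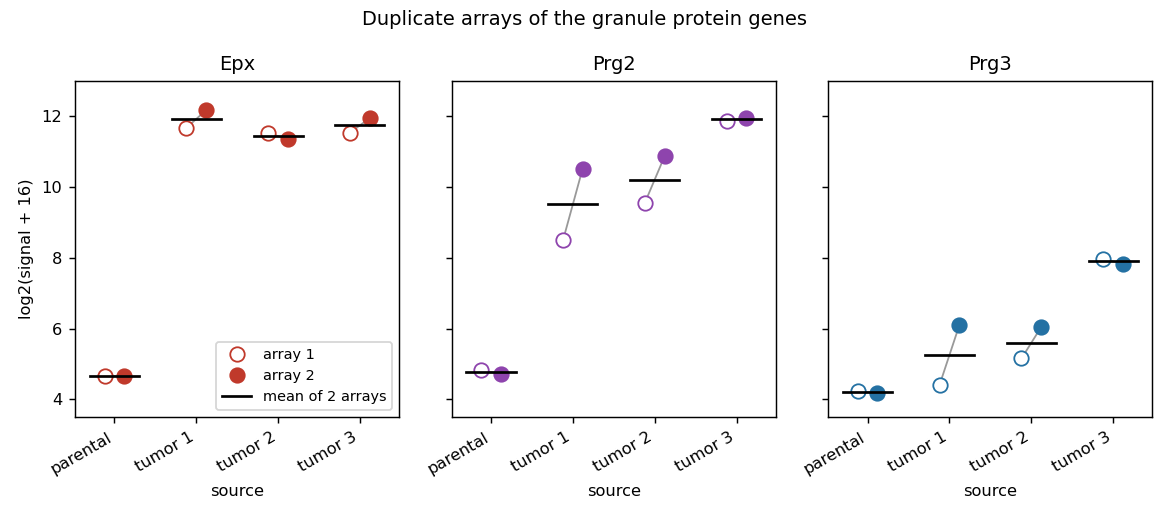
Values of log2(signal + 16) for Epx, Prg2 and Prg3 in each source, with an open circle for array 1, a filled circle for array 2 and a black line at their mean. Duplicates of tumor 3 lie close together and high for Prg2 and Prg3, those of tumors 1 and 2 are 0.89 to 2.03 apart for these genes, and Epx lies at a like level in all 3 tumors.

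In tumors 1 and 2 duplicate arrays lay further apart for Prg2 and Prg3 than for Epx, and in tumor 3 they lay closer together. From the first to the second array, Prg2 differed by 2.03 in tumor 1, 1.31 in tumor 2 and 0.084 in tumor 3, against -0.095 in parental cells. Prg3 differed by 1.68, 0.89 and -0.14 in the tumors and by -0.043 in parental cells. Epx, by contrast, differed by 0.50, -0.17 and 0.41, and by 0.0073 in parental cells, where all 3 genes lay under the floor. Prg2 was higher on the second array in all 3 tumors, as were 24.9% of probe sets. Over the 3 tumors the mean difference was 1.14 ± 0.35 (SE) for Prg2, 0.81 ± 0.32 for Prg3 and 0.25 ± 0.16 for Epx, with adjusted p of 0.0957, 0.159 and 0.354 by limma. None passed, while 848 of 14897 probe sets (5.69%) did, 396 of them (2.66%) higher on the second array. The order of the tumors for Prg2 was the same within first and within second arrays. For Prg3, tumor 3 was highest within both, and tumors 1 and 2 changed places.

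Genes beside the members on their chromosomes, taken from the gene order of the RefSeq table (GRCm38.p6), differed widely in signal. Epx lies on chromosome 11 in a group of peroxidase genes with Lpo, the lactoperoxidase of secretions, and Mpo, which encodes the peroxidase of neutrophil primary granules. An unmeasured gene, Mks1, lies between Epx and Lpo. Lpo stood between 2.47 and 4.43 on all 8 arrays. Mpo, on the far side of Lpo, had 12.1 and 16.4 on the parental arrays, 1802 and 1578 for tumor 1, 2727 and 2669 for tumor 2, and 1560 and 3401 for tumor 3. The outer genes of this group thus had high signal in every tumor and the one between them had signal near the floor.

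Prg2 and Prg3 are direct neighbours on chromosome 2. On the other side of Prg3, the ion channel gene P2rx3 stood between 0.552 and 2.67 on all arrays. On the other side of Prg2, the transporter gene Slc43a3 had 140 and 65.8 on the parental arrays, 68.2 and 47.6 for tumor 1, 119 and 77.7 for tumor 2, and 6.70 and 8.82 for tumor 3. Slc43a3, chosen for mention after its values were seen, was lowest in the tumor where Prg2 and Prg3 were highest, and its F test over the tumors had an adjusted p of 0.0411 by limma (0.00788 with the block).

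Ccr3 lies on chromosome 9 in a cluster of chemokine receptor genes, next to Ccr2, the receptor of inflammatory monocytes, and 2 genes from Ccr1. The brightest probe set of Ccr2 had 2.38 and 5.20 on the parental arrays, 235 and 530 for tumor 1, 570 and 684 for tumor 2, and 1000 and 1158 for tumor 3, in the same order of tumors as Prg2. Its F test over the tumors had an adjusted p of 0.171 by limma and 0.0310 with the block. The 2 dimmer probe sets of Ccr2 did not pass with the block (0.0909 and 0.570), and in the dimmest, with means of 74.5, 62.5 and 94.4 in tumors 1, 2 and 3, tumor 2 was lowest. Ccr1, a receptor shared by several myeloid cells, had 7.52 and 5.45 on the parental arrays and 389 and 897 in tumor 1, against 10.8 and 34.4 for tumor 2 and 42.5 and 88.6 for tumor 3. Ccr1 differed among tumors (adjusted p of 0.0135 by limma's F test) and was highest in tumor 1. Prg2 and Prg3 had their lowest tumor means there, but their arrays of tumors 1 and 2 overlapped. Of the measured neighbours of Il5ra on chromosome 6, Trnt1 and Crbn lay above the floor in all sources, and their log2 differences between tumors and parental cells ran from -0.35 to -0.10 over 5 probe sets, none of which passed.

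**Figure D3:**
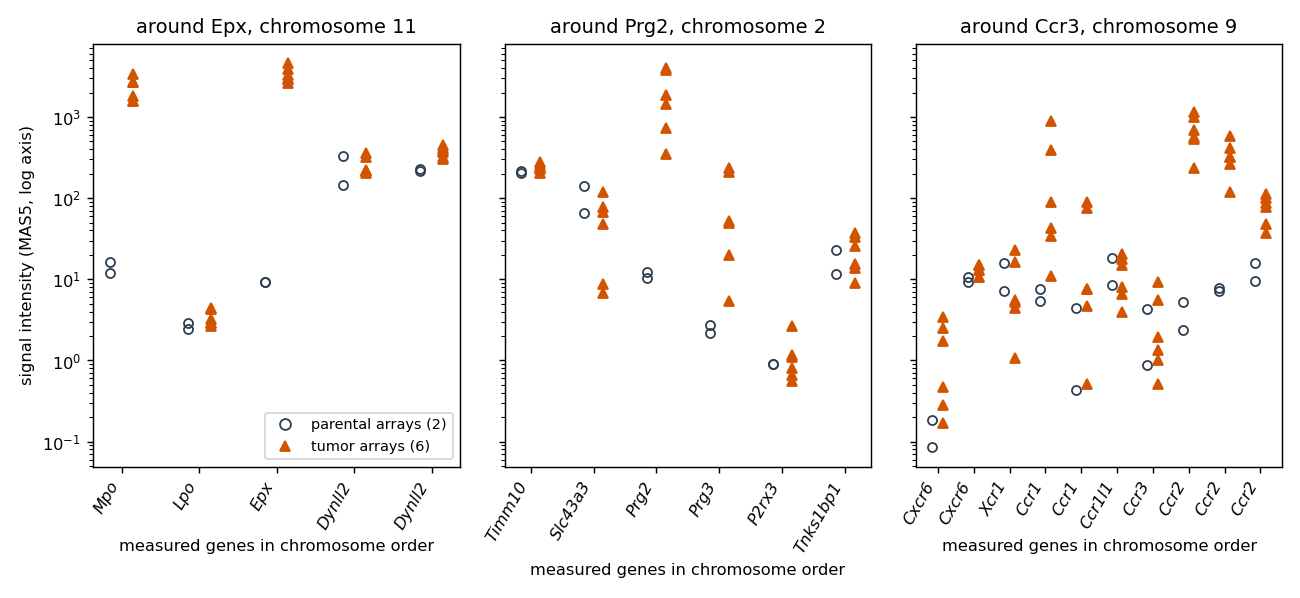
MAS5 signal intensity (log axis) of measured genes in chromosome order around Epx, Prg2 and Ccr3, with open circles for the 2 parental arrays and triangles for the 6 tumor arrays; a name that appears more than once has several probe sets, and unmeasured genes are left out. Lpo lies near the floor between Mpo and Epx, and Ccr3 lies near the floor beside Ccr2.

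Other genes of eosinophil biology were followed through a list of 80 probe sets, grouped as granule and ribonuclease genes, receptors, ligands and transcription factors. Of these, 49 passed the filter. In the comparison of tumors with parental cells by limma 0 of the 49 were called, 5 had an unadjusted p under 0.05 (against 2314 of 14897 over all probe sets, a larger share), and the median log2 difference was 0.11, beside 0.0079 over all 14897 probe sets. Over all probe sets 74 were called higher and 30 lower, 0.497% and 0.201%, together 0.698%. The array number was also taken as a block, in a fit of all 8 arrays whose spread is that between duplicates. In that fit 18 of the 49 were called, 15 of them higher, and 1952 of all 14897, 1102 of them higher. The same 8 arrays without the block gave 4, namely both probe sets of Gata2 and of Ccr1, and 489 of all 14897. Both shares were larger in the list, which was chosen with earlier results known and holds several probe sets of some genes. Centring each array on its median, which moved the median difference of all probe sets by -0.11, gave 67 called higher and 44 lower.

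Among the granule and ribonuclease genes, 2 of 5 probe sets passed the filter. The probe set of the ribonuclease gene Ear3 stood between 0.479 and 9.06 on all arrays, and that of Rnase2a, also named Ear11, between 1.30 and 10.7. Rnase2b, also named Ear5, had 0.556 and 8.76 on the parental arrays, 5.24 and 12.3 for tumor 1, 1.33 and 15.7 for tumor 2, and 17.5 and 27.7 for tumor 3, and exceeded the floor on the last of these alone. The genes of this family are close copies of one another, and probes may not tell them apart. Alox15, a lipoxygenase of eosinophils and macrophages, had 1.47 and 2.14 on the parental arrays, 64.2 and 293 for tumor 1, 4.28 and 12.4 for tumor 2, and 15.9 and 44.9 for tumor 3. Its log2 difference of 1.63 ± 0.71 (SE) did not pass (adjusted p of 0.335 by limma, 0.0212 with the block). Srgn, the proteoglycan that packs granules in many blood cells, had a difference of 0.33 (adjusted p of 0.416), and its signal was already 3428 ± 580 (SD, n = 2 arrays) in parental cells.

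Of 33 receptor probe sets 23 passed the filter, 12 of them above 0, with a median of 0.19. Over all probe sets tested 7609 of 14897 were above 0, and some receptor genes count with several probe sets. Siglecf, a sialic acid receptor that marks mouse eosinophils, had 13.2 and 11.04 on the parental arrays, 22.3 and 74.8 for tumor 1, 13.7 and 30.1 for tumor 2, and 60.9 and 79.4 for tumor 3. All tumor arrays of Siglecf were above both parental arrays, the first array of tumor 2 by less than 1 unit of signal, and its difference of 1.03 ± 0.34 (SE) did not pass (adjusted p of 0.23 by limma, 0.0348 with the block). Itgam, an integrin chain of granulocytes and macrophages, had 10.5 and 8.17 on the parental arrays and 25.3 to 348 on the tumor arrays, a difference of 2.24 ± 0.40 (adjusted p of 0.0853 by limma, 0.00903 with the block and 0.0255 without tumor 2). Tumor 2 had the smallest difference for Itgam, 1.52 against 2.99 in tumor 1 and 2.21 in tumor 3. Without tumor 1 or without tumor 3 none of the 49 listed probe sets passed, Itgam included. The tetraspanin gene Cd9, singled out after its values were seen, had 1.13 and 7.84 on the parental arrays, 3.55 and 1.58 for tumor 1, 12.8 and 36.8 for tumor 2, and 51.5 and 114 for tumor 3. Its order of tumors was that of Prg2, and its F test had an adjusted p of 0.0652 by limma and 0.0111 with the block. The beta chain that Il5ra needs was abundant in all sources: the probe set named for Csf2rb alone had 1431 and 2570 on the parental arrays and 826 to 2039 on the tumor arrays (-0.49, adjusted p of 0.546). Ptgdr2 and Hrh4, receptors for prostaglandin and histamine, did not exceed the floor on any array.

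Of the 13 ligand genes, 11 did not pass the filter, Il5 and the eotaxin Ccl11 among them. Il5 stood between 1.26 and 10.3 and Ccl11 between 0.419 and 4.48 over the 8 arrays. The chemokine gene Ccl8 (0.11, adjusted p of 0.814 by limma) and the cytokine gene Il4 (-0.047, 0.985) had no difference beyond their spread.

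Of 29 transcription factor probe sets 22 passed the filter, 13 of them above 0, with a median of 0.087. This stands beside 7609 of 14897 above 0 over all probe sets tested. Gata2, which acts in eosinophil, mast cell and stem cell programs, had 693 and 887 on the parental arrays and 1223 to 1554 on the tumor arrays of its first probe set, a difference of 0.84 ± 0.17 (SE, adjusted p of 0.115 by limma, 0.0154 with the block). Spi1, the ETS factor of myeloid cells, had 134 and 152 on the parental arrays and 196 to 588 on the tumor arrays, a difference of 1.09 ± 0.23 (0.116, and 0.00881 with the block). Tumor and parental arrays did not overlap for either gene. Gata1, on which eosinophil formation depends, had 306 and 305 on the parental arrays, 38.6 and 87.2 for tumor 1, 357 and 222 for tumor 2, and 284 and 232 for tumor 3. Tumor 1 was the low one, and Gata1 differed among tumors (adjusted p of 0.0479 by limma's F test, 0.0264 with the block). Its partner Zfpm1 was also lowest in tumor 1, at 260 and 154 on its brighter probe set against 508 to 904 elsewhere (F test 0.126, and 0.00225 with the block). Cebpa stood between 0.554 and 5.91 on all arrays.

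**Figure D4:**
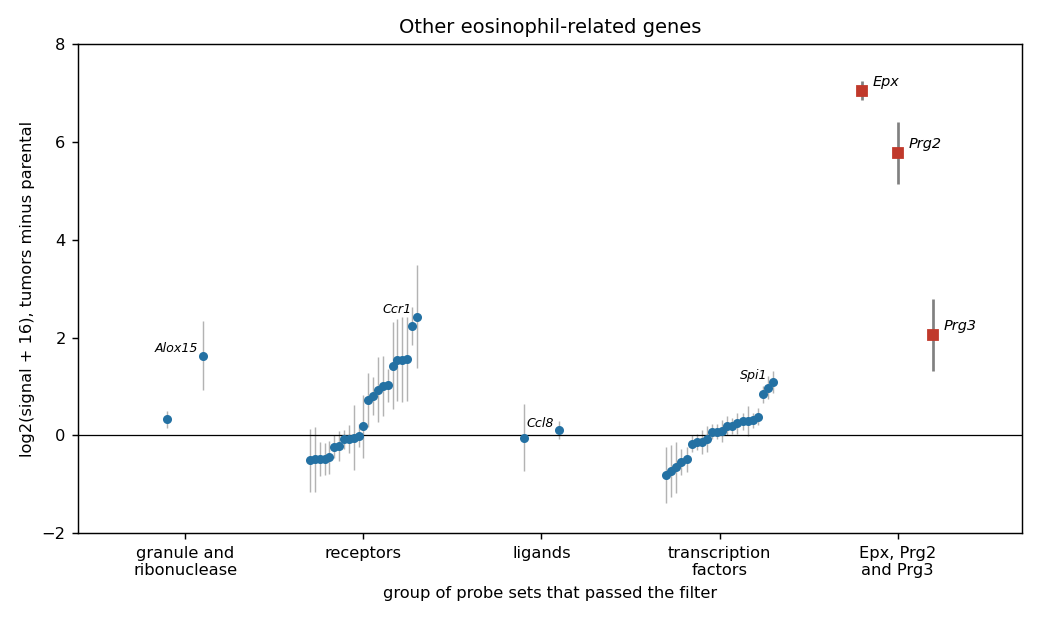
Difference in log2(signal + 16) between the 3 tumors and the 2 parental arrays, with SE bars, for 49 probe sets of other eosinophil-related genes that passed the filter and, as squares, for Epx, Prg2 and Prg3. Each point is 1 probe set and the highest of each group is named; the 49 range from -0.82 to 2.42, and Epx and Prg2 lie at 7.05 and 5.78.

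The probe sets whose course over the 8 arrays was most like that of Epx were sought by the root mean square difference of log2(signal + 16) after centring each on its mean. The nearest were those of Fbp2 (0.52), a fructose bisphosphatase, Mpo (0.61), Slfn4 (0.73), a Schlafen gene of myeloid cells, Ccr2 (1.10) and the T cell receptor chain gene Cd3g (1.17), while Prg2 stood at 1.20 and Prg3 at 2.43. For Prg2 the nearest were Ccr2 (0.61), Slfn4 (0.91), Fbp2 (1.01), Cd3g (1.02) and a further probe set of Ccr2 (1.03), while Epx stood at 1.20 and Prg3 at 1.64. The nearest were picked from all probe sets and the granule genes were not, so the distances are not set against each other. The measure follows the size of the difference from parental cells, so a dimmer probe set such as that of Prg3 is far from both.

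Some markers of other cells that a spleen can hold were higher in tumors than in parental cells and others were lower. Their part in the values above was not tested. The summed signal of the 4 primary granule genes Mpo, Elane, Prtn3 and Ctsg was 265 to 774 on parental and 2927 to 5986 on tumor arrays, with Mpo at 2290 ± 530 and Prtn3 at 1751 ± 563 (SD, n = 3 tumors). Elane had 8.74 and 13.6 on the parental arrays and 21.6 to 57.2 on the tumor arrays. Ctsg had 28.5 and 72.4 on the parental arrays, 356 and 224 for tumor 1, and 49.8 and 122 for tumor 2. In tumor 3 Ctsg had 28.2 and 26.7, not above the parental arrays. The sum of 11 late neutrophil probe sets was 72.8 to 76.1 on parental and 192 to 7686 on tumor arrays, led by Ngp (1651 ± 1189) and Cd177 (146 ± 84.8), with Camp and Cxcr2 under the floor throughout. The sum of 20 macrophage and monocyte probe sets was 284 to 1231 against 950 to 3489. It was led by Ccr2 (696 ± 353) and Adgre1 (344 ± 237), with C1qa, C1qc and Marco under the floor on all arrays. Adgre1 overlapped the parental arrays (81.0 to 936 against 96.9 and 237). Every Csf1r probe set had a lower mean in tumors: 87.7 against 283, 34.1 against 89.9 and 65.8 against 86.9 in parental cells. The parental arrays lay far apart for each, at 11.5 and 555, 21.5 and 158, and 46.2 and 128. The first parental array was below the tumor mean each time, so the higher parental means rest on the second. None of these Csf1r differences passed (adjusted p of 0.828, 0.551 and 0.771 by limma). The 14 mast cell and basophil probe sets summed to 1497 to 2930 on parental arrays, 8689 and 11255 in tumor 1 and 3506 to 3704 in tumors 2 and 3. This list was led by Fcer1a (1972 ± 3368) and Gata2 (1857 ± 247), and Kit, Hdc, Ms4a2, Tpsb2 and Mcpt4 were under the floor throughout. Fcer1a was high in tumor 1 alone. In tumors 2 and 3 most of the sum came from both probe sets of Gata2, which also acts in eosinophil and stem cell programs. Their means were 1408 and 1964 in tumor 2 and 1488 and 2032 in tumor 3.

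The 11 T cell probe sets summed to 66.4 to 85.0 on parental and 867 to 2599 on tumor arrays, nearly all of it Cd3g (1233 ± 338) and Cd3d (421 ± 290), with Cd3e, Cd4 and Cd28 under the floor. The 16 pro-B probe sets, led by Cd79b (254 ± 19.9) and Cd79a (202 ± 59.3), summed to 268 to 270 on parental and 480 to 650 on tumor arrays, and Ebf1, Rag1 and Dntt were under the floor on all arrays, so these defining pro-B markers were not detected in the parental cells either. The sums of the NK cell list (led by Nkg7, at 78.6, and Prf1, at 16.8), the stroma list (led by both probe sets of Sparc, at 35.1 and 28.1) and the endothelial list (led by Pecam1, at 197, and Kdr, at 13.4) were at most 380.1 on every tumor array. The erythroid list summed to 13549 to 13711 on parental and 758 to 3309 on tumor arrays; among its probe sets that name 1 gene Klf1 was brightest in tumors (537 ± 341). The eosinophil markers themselves were uneven: Epx and Prg2 exceeded the floor on all 6 tumor arrays, Prg3 and Siglecf on 5, Alox15 on 3, and Il5ra and Ccr3 on none.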

How the data were processed

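RNA of the parental cells and of 3 splenic tumors had been measured on Affymetrix Mouse Genome 430A 2.0 arrays, 2 per source. Each deposited value is a signal intensity of 1 probe set on a linear scale, made with MAS5 per the submitters' processing notes. Its version is not given in the sources used here. With 2% cut at each end, the mean of each array was 150.06, so arrays share 1 scale, and an RNA class that takes more of an array lowers the rest. Median signal ran from 32.4 to 37.9 and the 40th percentile from 15.6 to 20.6. Precision is limited by how few arrays there are.

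Of 22690 probe sets, 64 controls were left out; 20380 had 1 symbol, 691 several and 1555 none. Values were taken as log2(signal + 16). A probe set was kept where it exceeded the 40th percentile of its array on at least 2 of 8 arrays (14897). Probe sets, not genes, were tested, since the choice of members allows joined symbols.

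Tests used limma 3.58.1 in R 4.3.3, two-sided, with Benjamini-Hochberg adjustment over all probe sets tested at 0.05: tumors (mean of 2 arrays each) against 2 parental arrays, an F test among tumors in a fit of all 8 arrays, and second minus first array over 3 tumors. The fits were also run on simulated data with planted changes. Apart from those changes, same-numbered arrays shared no deviation there, so error rates on the real arrays were not checked that way. Deviations of same-numbered arrays correlated at 0.434 to 0.594 in all 6 pairs of sources, so the array number pairs the arrays. Members, lists, tests and alternatives were chosen with earlier results of these data known. Named were all members, the called and 2 lowest-p probe sets of each role group, the 2 brightest in tumors of each marker list (none by name where several symbols are joined), the 5 nearest to Epx and to Prg2, and, chosen after their values were seen, the other role genes, the genes beside the members on the chromosome and the upstream sequences. Alternatives were pseudocounts of 1 and 64, no filter, a 60th percentile filter, median centring, quantile normalization, a replicate block, single array numbers, 1 probe set per gene, a trended robust prior and leaving out each sample.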

Additional observations from a re-analysis of the deposited data

Results flagged for a closer look

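Prg3 differed among the 3 tumors when the array number was a block (limma F test, adjusted p of 0.0236), with tumor 3 at 235 and 212 against 5.37 to 52.3 on the 4 arrays of tumors 1 and 2. Without the block its adjusted p was 0.0823. In both fits the spread is that between duplicate arrays of 1 source, which is not the spread between mice. With the block 787 of 14897 probe sets (5.28%) passed. No group held enough samples for a check of single arrays that stand apart.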

How the results depend on the processing

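Tumors against parental cells gave 104 called probe sets. The count was 45 with a pseudocount of 64, 22 with no filter, 66 with 1 probe set per gene (8539 tested), 489 with all 8 arrays and a mean per source, 1952 with the replicate block, and 5 and 12 on arrays numbered 1 and 2 alone, where the lone parental array is assumed to vary like the tumors. Leaving out a sample gave 9 to 94, with 16 without parental replicate 1 and 9 without parental replicate 2. Differences among tumors gave 188, 88 with a pseudocount of 1, 87 with no filter, 787 with the replicate block, and 53 to 136 without 1 array; it was 92 or 103 without an array of tumor 2 and 55 or 53 without an array of tumor 3. Second against first arrays gave 848, 0 with a pseudocount of 1 (4000 at an unadjusted p under 0.05), 0 with no filter (5069), 2030 with a pseudocount of 64, 1917 with the filter at the 60th percentile, and 0 to 138 without 1 tumor: 14, 0 (2910 unadjusted) and 138 without tumors 1, 2 and 3. The other eosinophil-related list had 0 calls, 4 with all 8 arrays, 18 with the replicate block, and 0 to 1 without 1 sample. The cause of these moves was not tested, beyond fewer samples or probe sets where the setting itself removes them.

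The log2 difference of Epx ran from 5.53 (pseudocount of 64) to 8.34 (pseudocount of 1), that of Prg2 from 4.38 to 6.91 and that of Prg3 from 1.03 to 3.90, above 0 in all 13 alternatives for each. Il5ra and Ccr3 took both signs, from -0.28 to 0.14 and from -0.22 to 0.30, which says nothing of a direction. Among tumors, Epx and Prg2 did not pass in any of the 15 alternatives (lowest adjusted p 0.31 and 0.051) and Prg3 passed in 4. Between duplicate arrays Prg2 passed without tumor 3 (0.0475), and Epx and Prg3 passed in none of the 9 alternatives run. Values near the 40th percentile have no secure order.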

Other observations

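Fcer1a and Mcpt8 were highest in tumor 1. Prg2 and Prg3 had their lowest tumor means there, but their arrays of tumors 1 and 2 overlapped. Tumor 2 was higher than tumor 1 by 0.70 and 0.34 on the log2 scale (adjusted p of 0.782 and 0.889 by limma). Mpo, Prtn3 and both probe sets of Gata2 also had their lowest tumor means in tumor 1. None of these probe sets differed among tumors by limma's F test (adjusted p of 0.693, 0.773, 0.975 and 0.779). Of the other primary granule genes, Elane also had its lowest tumor mean in tumor 1. Ctsg went the other way, with means of 290, 85.7 and 27.5 in tumors 1, 2 and 3. By the same F test neither passed (adjusted p of 0.743 for Elane and 0.0531 for Ctsg). Fcer1a, the alpha chain of the high-affinity IgE receptor of mast cells and basophils, had 5067 and 6654 in tumor 1 against 22.2 and 50.9 for tumor 2 and 19.3 and 16.3 for tumor 3, and 2.10 and 189 on the parental arrays. Mcpt8, a basophil protease, had 80.9 and 116 in tumor 1 and at most 19.3 in the other tumors. Fcer1a differed among tumors by limma's F test (adjusted p of 0.0147) and Mcpt8 did not (0.054). Fcer1a and Mcpt8 were singled out after their values were seen.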
